A study of Mus musculus with 4 samples.

Results

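The small leucine-rich proteoglycans are secreted matrix proteins, and 8 of their genes were followed by name across every library, gut region and cell group of embryonic intestinal stroma: *Dcn* (decorin), *Lum* (lumican), *Bgn* (biglycan), *Fmod* (fibromodulin), *Ogn* (osteoglycin, also called mimecan), *Prelp*, *Aspn* (asporin) and *Omd* (osteomodulin). They were chosen as a gene family, with earlier results of these data known, and are 8 of the 28692 genes listed in the files. Stroma of untreated mouse embryos at E12.5, labelled EYFP (C57BL/6), was profiled by droplet single-cell RNA sequencing in 2 libraries of small intestine (SI) and 2 of large intestine with the cecum (LI). All 4 libraries carry the same fluorescent reporter, and each pooled several embryos, so a library stands for a pool and not for an animal. Cells had been sorted as live, YFP+ and Itgb1+, and as negative for CD45, Ter119, CD31 and EpCAM, so each level describes cells that passed this gate. The text of the paper names Itgb1 but not YFP for its sort of E12.5 colon cells. Other label fields name adult mice or colon, and stage and region were taken from the sample titles.

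Each of these proteins has a core of leucine-rich repeats, and several carry chondroitin, dermatan or keratan sulphate chains. Outside the cell they bind collagen fibrils and set the diameter and spacing of those fibrils, and decorin, biglycan and fibromodulin also bind growth factors of the TGF-β family. Decorin and lumican are widely used as markers of fibroblasts (FB) in adult tissue, where *Ogn*, *Aspn* and *Omd* are better known from bone, tendon and heart valve.

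Members of the family lie next to each other in the mouse genome (build mm10, GRCm38). *Dcn* (chr10:97479609-97518143, plus strand) and *Lum* (chr10:97565128-97572703, plus strand) are neighbours with 47.0 kb between them. *Aspn* (chr13:49544443-49567565), *Omd* (chr13:49582462-49592822) and *Ogn* (chr13:49608046-49624501) follow each other on the plus strand, and *Omd* and *Ogn* lie within *Cenpp*, which is on the opposite strand and shares no exon bases with them. An exon of *Aspn* does overlap an exon of *Cenpp*, and an exon of *Prelp* (chr1:133910304-133921414, minus strand) overlaps one of the antisense gene *Gm15851*. *Fmod* (chr1:134037254-134048277, plus strand) is 116 kb from *Prelp*, and *Bgn* (chrX:73483602-73495933, plus strand) has no family member beside it.

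The 250 bases before the RefSeq start of 4 members are shown because these genes differ in the cell group where they were mostly counted or highest. *Fmod* and *Ogn* lay highest in mesothelial-like cells, and *Bgn* and *Aspn* were counted mainly in other mesenchyme. For *Aspn* this rests largely on 1 library: 90 of its 113 UMIs there were in SI replicate 2, and 0 in LI replicate 1. The sequences come from RefSeq on GRCm38.p6, 5′ to 3′ on the strand of the gene, and capitals mark matches to the motifs named after them, on either strand.
Fmod (chr1:134037004-134037253, plus strand): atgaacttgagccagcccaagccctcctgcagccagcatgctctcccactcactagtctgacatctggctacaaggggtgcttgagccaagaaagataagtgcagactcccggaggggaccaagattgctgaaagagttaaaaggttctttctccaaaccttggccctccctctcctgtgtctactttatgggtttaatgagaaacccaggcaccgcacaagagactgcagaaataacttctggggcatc
Ogn (chr13:49607765-49608014, plus strand): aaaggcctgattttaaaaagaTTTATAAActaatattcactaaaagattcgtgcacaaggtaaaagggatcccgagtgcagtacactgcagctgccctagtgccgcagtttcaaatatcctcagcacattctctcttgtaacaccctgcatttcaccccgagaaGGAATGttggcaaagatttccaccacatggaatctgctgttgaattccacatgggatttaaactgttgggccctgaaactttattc
Bgn (chrX:73483351-73483600, plus strand): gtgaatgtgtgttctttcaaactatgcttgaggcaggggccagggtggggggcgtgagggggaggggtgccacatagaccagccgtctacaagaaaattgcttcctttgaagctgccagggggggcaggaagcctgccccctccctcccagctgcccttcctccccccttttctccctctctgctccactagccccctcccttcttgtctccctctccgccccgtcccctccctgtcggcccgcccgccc
Aspn (chr13:49544193-49544442, plus strand): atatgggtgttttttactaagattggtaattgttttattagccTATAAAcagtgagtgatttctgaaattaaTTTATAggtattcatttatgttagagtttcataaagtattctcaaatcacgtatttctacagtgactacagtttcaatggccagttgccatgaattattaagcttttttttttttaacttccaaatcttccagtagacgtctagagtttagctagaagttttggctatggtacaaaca

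In these windows 5 short motifs were searched on both strands: the TATA box TATAAA, the TEAD motif GGAATG, the GLI motif GACCACCCA, the E-box CACCTG and the SMAD motif GTCTAGAC. TATAAA was found before *Ogn* and before *Aspn*, and in 12.4% of the 32851 mouse promoter windows of the same length. All of these matches before *Ogn* and *Aspn* lie nearer the far end of the window than the RefSeq start, as the capitals show. Whether any of them acts as a TATA box was not tested. GGAATG was found before *Ogn* and in 12.6% of all windows. The other 3 motifs, found in 0.225%, 17.2% and 0.167% of all windows, were not found before any of the 6 members with a sequence, which include *Prelp* and *Omd*. GC content was 64.4% before *Bgn*, 51.2% before *Fmod*, 42.0% before *Ogn* and 30% before *Aspn*, the widest contrast being between *Bgn* and *Aspn*.

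The deposited counts are unique molecular identifiers (UMIs, each standing for 1 captured transcript), and 4603 to 6247 cells per library were kept after filtering, 22094 in all. LI replicate 1 was the shallowest, with a median of 4220.5 UMIs per cell against 8382 to 8829 in the other 3 libraries. Clustering, from which the 8 genes and the related gene lists were left out, gave 14340 cells of other mesenchyme in 5 clusters, 4875 smooth muscle-like, 1322 mesothelial-like and 1246 neural-like cells. The mesothelial-like cluster was led by *Upk3b*, *Krt19*, *Krt7*, *Upk1b*, *Podxl* and *Wt1*, and its 8 marker genes summed to 1550 to 2251 CPM per library, where CPM is the UMI count scaled to a library and group total of 1000000, against 12.6 to 27.2 CPM in other mesenchyme. Immune markers summed to at most 1.27 CPM in mesothelial-like cells and 0.77 CPM in other mesenchyme, with *Ptprc* at 0 in both. Of 292 cells left unnamed, 154 formed a cluster in which 151 cells came from LI replicate 2. Between 5 and 11 cell barcodes were shared by any 2 libraries. The share of mesothelial-like cells was 10.5% and 5.11% in LI and 5.31% and 2.77% in SI, a share that the gate can set.

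*Dcn*, *Fmod* and *Ogn* reached their highest level in mesothelial-like cells, *Bgn*, *Aspn* and *Omd* had 83.2%, 86.3% and 83.6% of their UMIs in other mesenchyme, which held 61.9% of all UMIs, *Lum* was spread over all 3 mesodermal groups, and *Prelp* was counted mainly in neural-like cells. The *Aspn* share did not hold in LI replicate 1, with 2 UMIs in smooth muscle-like cells and 0 in other mesenchyme. Cell groups are clusters of the same cells, so differences between them are given as levels with their range over the 4 libraries and without a test. Levels in UMI CPM are compared within a gene and not between genes. In summed counts, fewer cells with a transcript and less transcript per cell cannot be told apart.

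*Dcn* encodes decorin, a small proteoglycan with a single glycosaminoglycan chain that binds collagen and TGF-β. Its level in mesothelial-like cells was 224 and 294 CPM in LI replicates 1 and 2, and 531 and 728 CPM in SI replicates 1 and 2. In other mesenchyme it was 31.8, 43.3, 26.9 and 34.0 CPM in the same order, and in smooth muscle-like cells 17.5, 18.4, 20.2 and 12.2 CPM. The ranges of the 3 groups did not overlap, and the mesothelial-like level lay 6.78 to 21.4 times above that of other mesenchyme within a library. These 1322 mesothelial-like cells held 44.8% of all 8357 *Dcn* UMIs while holding 5.18% of all UMIs. In neural-like cells, which serve as the background group for every member but *Prelp*, 7 *Dcn* UMIs were counted, a level of 0.39 CPM.

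*Lum* encodes lumican, a keratan sulphate proteoglycan that spaces collagen fibrils, best known from the cornea. It was at 39.8 and 49.1 CPM in the LI libraries and 86.0 and 108 CPM in the SI libraries of other mesenchyme. Smooth muscle-like cells held 49.8 and 59.4 CPM in LI and 64.8 and 74.2 CPM in SI, and mesothelial-like cells 41.0 and 65.3 CPM in LI and 222 and 340 CPM in SI. In LI the 3 groups therefore lay within 39.8 to 65.3 CPM, and in SI mesothelial-like cells lay above the other 2 groups in both libraries. Neural-like cells held 15 of the 12347 *Lum* UMIs, or 0.83 CPM. Although *Dcn* and *Lum* are neighbours, the ratio of mesothelial-like cells to other mesenchyme was 11.7 for *Dcn* and 1.89 for *Lum* over the pooled libraries.

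*Fmod* encodes fibromodulin, which binds collagen and steers its cross-linking. Its counts were low, 227 UMIs in all, and 168 of them (74.0%) were in mesothelial-like cells. The mesothelial-like level was 8.61 and 19.5 CPM in LI and 20.3 and 30.4 CPM in SI, against 0.13 to 0.55 CPM in other mesenchyme. The pooled ratio of these groups was 55.8, with a 95% counting interval of 38.7 to 82.4, and the ratio within a library ran from 23.8 to 151. The pooled ratio depended on how cells were grouped: it was 36.3 with doublets kept, 38.6 with the unnamed clusters added to other mesenchyme and 13.1 (6.99 to 26.8) with groups chosen by marker UMIs. An unnamed cluster of 138 cells, led by *Foxd1* and *Shisa3*, held 17 *Fmod* UMIs, 14 of them in SI replicate 2. Its pooled level was 11.2 CPM, against 18.0 CPM in mesothelial-like cells. Of the 36 UMIs of other mesenchyme, 18 were in the cluster led by *Wnt4*, *Anxa2* and *Tac2* (1.88 CPM). No *Fmod* UMI was found in neural-like cells, which allows a level of up to 0.17 CPM.

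*Ogn* encodes osteoglycin, a member of another class of the family than decorin and lumican. It stood at 15.2 and 62.1 CPM in LI and at 68.9 and 134 CPM in SI in mesothelial-like cells. In other mesenchyme it was at 3.25 and 13.8 CPM in LI and at 0.67 and 6.71 CPM in SI, and in smooth muscle-like cells at 0.18 to 3.78 CPM. Mesothelial-like cells lay above other mesenchyme in every library, by 4.51 to 103 times. The replicates of a region were far apart: in all 3 groups, replicate 2 lay above replicate 1 of the same region.

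*Bgn* encodes biglycan, the closest relative of decorin. It showed the opposite order to *Dcn*, with 23.2, 19.6, 20.5 and 33.0 CPM in other mesenchyme and 5.30, 8.36, 6.76 and 10.8 CPM in mesothelial-like cells (LI replicates 1 and 2, then SI replicates 1 and 2). Mesothelial-like cells held 0.229 to 0.427 of the level of other mesenchyme within a library, and only 69 of the 3272 *Bgn* UMIs. Smooth muscle-like cells held 18.2 and 13.4 CPM in LI and 8.01 and 9.26 CPM in SI.

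The remaining 3 members were at the edge of detection. *Aspn*, encoding asporin, a relative of decorin with an aspartate-rich end, had 131 UMIs, of which 113 were in other mesenchyme and 90 of these in SI replicate 2 alone. *Omd*, encoding a keratan sulphate proteoglycan first known from bone, had 55 UMIs, of which 46 were in other mesenchyme. Its pooled level was 0.41 CPM there and 0.32 CPM in mesothelial-like cells, where 2 of the 4 libraries lay above other mesenchyme, and the ratio of 0.78 had a counting interval of 0.16 to 2.43. *Prelp*, encoding a proline- and arginine-rich protein that links basement membranes to matrix, had 35 UMIs: 23 in neural-like cells, 8 in other mesenchyme, 4 in smooth muscle-like cells and 0 in mesothelial-like cells. The neural-like *Prelp* level was 1.27, 1.44, 0.65 and 1.65 CPM in the 4 libraries, above other mesenchyme (0.05 to 0.09 CPM) in each, as were 26.9% of all 13655 genes. All 23 of these UMIs came from the neural-like cluster led by *Foxd3*, *Sox10* and *Erbb3*, genes of neural crest and glial precursors, and none from the cluster led by *Stmn2* and *Tubb3*, genes of neurons, which was 289 cells to 957.

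Of the 5 members with enough counts to be tested in mesothelial-like cells against other mesenchyme, 4 lay above other mesenchyme in every library, as did 24.2% of all 13498 genes, and 1 (*Bgn*) lay below, as did 29.5%. In smooth muscle-like cells 3 of the 4 members tested (*Dcn*, *Bgn* and *Ogn*) lay below other mesenchyme in every library, as did 22.8% of 13659 genes, and none lay above in every library, as did 16.5%. *Fmod* and *Omd*, with 6 and 3 UMIs there and not tested, also lay below in every library. The levels of all 8 genes by cell group and library show this partition.

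**Figure D1:**
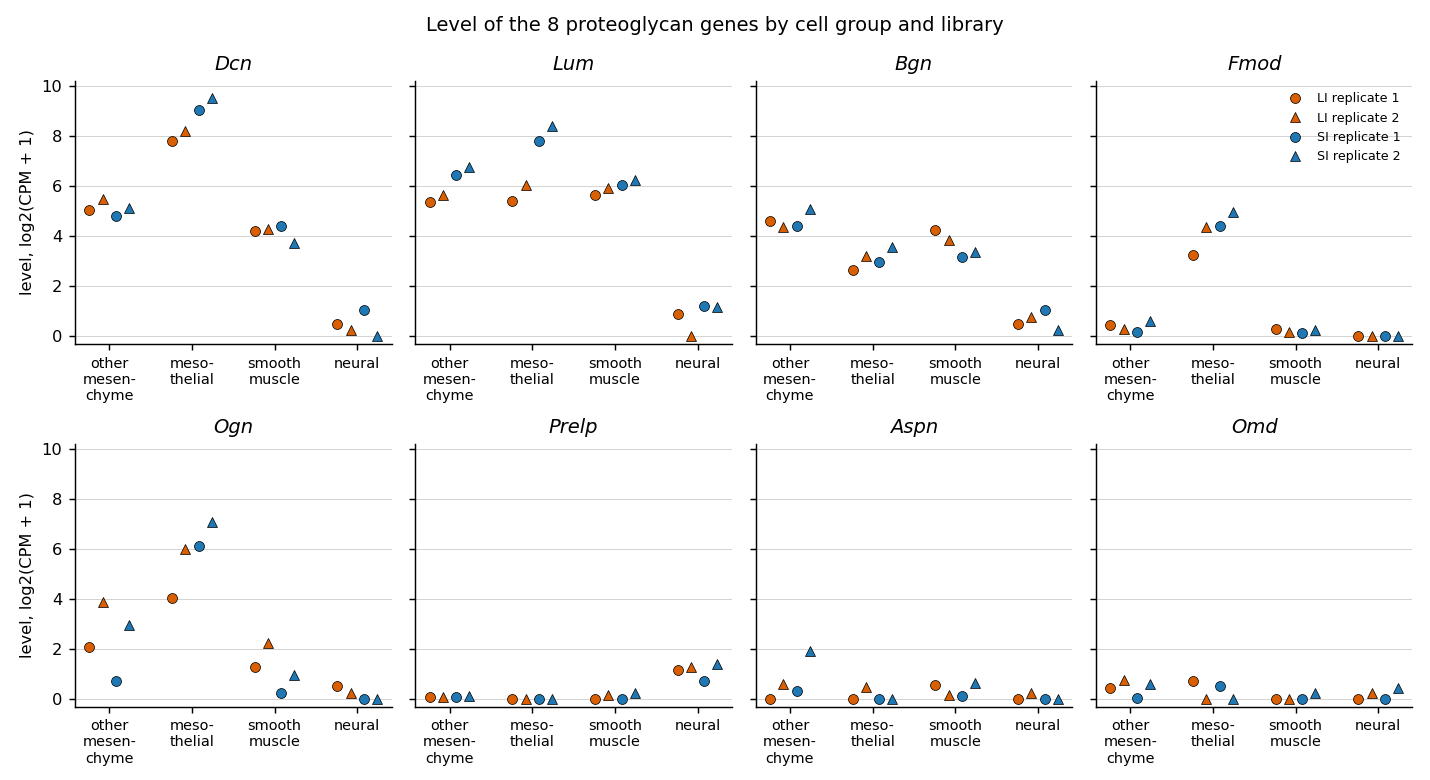
Level of each of the 8 proteoglycan genes (y axis, log2 of CPM plus 1) in the 4 cell groups (x axis), with 1 point per library, orange for LI, blue for SI, circles for replicate 1 and triangles for replicate 2. *Dcn*, *Fmod* and *Ogn* lie highest in mesothelial-like cells in all 4 libraries, *Bgn* is lower there than in other mesenchyme, and the *Prelp* points lie highest in neural-like cells.

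SI and LI were then compared within each cell group, to ask whether the family differs along the gut at a stage before villi form. UMIs were summed per library and tested with edgeR's quasi-likelihood test on all genes, 2 libraries against 2, with Benjamini-Hochberg adjusted p-values and a call at an adjusted p under 0.05. Fold changes are SI over LI, and the p-values of these comparisons measure the spread between 2 pools per region.

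*Lum* was higher in SI than in LI in other mesenchyme and in mesothelial-like cells, and *Dcn* in mesothelial-like cells. In mesothelial-like cells, *Lum* had a mean of 281 ± 83.2 CPM in SI and 53.2 ± 17.1 CPM in LI (SD, n = 2 each), a log2 fold change of 2.48 ± 0.27 (SE, edgeR adjusted p = 0.00198). *Dcn* had 629 ± 139 CPM in SI and 259 ± 48.9 CPM in LI (SD, n = 2 each), a log2 fold change of 1.35 ± 0.22 (SE, edgeR adjusted p = 0.0155). Both SI libraries lay above both LI libraries for each gene. These were 2 of the 5 members tested in mesothelial-like cells, where 0.91% of 10659 genes were called. Without SI replicate 2 the call for *Dcn* was lost (log2 fold change 1.12, edgeR adjusted p = 0.0851), and that for *Lum* was not (2.16).

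The other 3 members tested in mesothelial-like cells were not called. *Ogn* had a log2 fold change of 1.48 ± 0.48 (SE, edgeR adjusted p = 0.260) and *Fmod* one of 0.93 ± 0.38 (SE, edgeR adjusted p = 0.406). With any 1 library left out, *Ogn* ran from 0.77 to 2.74 and *Fmod* from 0.44 to 1.55. Without LI replicate 2 both were called, at 2.74 (edgeR adjusted p = 1.29e-06) and 1.55 (edgeR adjusted p = 0.00417), and without SI replicate 1 *Ogn* was called at 1.88 (edgeR adjusted p = 2.99e-05). Of all genes, 9.37% were called without LI replicate 2 and 1.41% without SI replicate 1. Both had SI libraries above LI libraries, as did 4 of the 5 members and 16.5% of all genes tested. *Bgn*, at 6.83 ± 2.16 CPM in LI and 8.76 ± 2.84 CPM in SI (SD, n = 2 each), overlapped between regions (0.41 ± 0.43, edgeR adjusted p = 0.821). Marker genes of other cells in these sums moved in part with region: mesothelial markers summed to 1550 and 2059 CPM in LI and 2160 and 2251 CPM in SI, smooth muscle markers to 743 and 502 CPM in LI and 334 and 421 CPM in SI, and FB markers to 283 and 218 CPM in LI and 216 and 192 CPM in SI. Markers of interstitial cells of Cajal summed to 55.9 and 87.5 CPM in LI and 26.1 and 39.3 CPM in SI, those of cartilage and tendon to 85.7 and 82.4 CPM in LI and 56.3 and 78.5 CPM in SI, and neural markers to 9.27 and 15.9 CPM in LI and 9.01 and 6.33 CPM in SI. Their part in the results for *Lum* and *Dcn* was not tested.

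In other mesenchyme, *Lum* had 96.9 ± 15.5 CPM in SI and 44.5 ± 6.55 CPM in LI (SD, n = 2 each), a log2 fold change of 1.29 ± 0.18 (SE, edgeR adjusted p = 0.0099). Markers of other cells moved with region in the same sums, and their part in the result was not tested: smooth muscle markers summed to 772 and 1052 CPM in LI and 1168 and 2002 CPM in SI, pericyte markers to 27.0 and 40.6 CPM in LI and 54.7 and 116 CPM in SI, and neural markers to 24.1 and 36.4 CPM in LI and 47.2 and 60.4 CPM in SI. Lower in SI were mesothelial markers, at 27.2 and 25.8 CPM in LI and 12.6 and 13.2 CPM in SI, epithelial markers, at 16.3 and 16.9 CPM in LI and 9.71 and 7.35 CPM in SI, and markers of interstitial cells of Cajal, at 119 and 165 CPM in LI and 99.1 and 114 CPM in SI. *Lum* was the 1 member called of 7 tested, where 3.95% of 14022 genes were called. *Dcn* did not differ by more than the replicates did, with 30.4 ± 5.01 CPM in the SI libraries against 37.6 ± 8.12 CPM in the LI libraries (SD, n = 2 each; log2 fold change -0.14 ± 0.21, edgeR adjusted p = 0.784). *Bgn* was at 0.48 ± 0.25 on the log2 scale (edgeR adjusted p = 0.366), and *Ogn*, *Aspn*, *Omd* and *Fmod* had standard errors from 0.71 to 1.14 and were not called. *Ogn*, at -1.05 ± 0.87, was called at -1.73 once LI replicate 1 was left out and at -3.46 once SI replicate 2 was, but stood at 0.30 and was not called when LI replicate 2 was left out. *Aspn*, at 2.54 ± 1.14, was called at 1.73 when LI replicate 1 was left out and at 3.38 when SI replicate 1 was, and also when LI replicate 2 was, which leaves LI with 0 UMIs. With SI replicate 2 left out it stood at 0.11 and was not called. Of all genes, 8.11% and 16.4% were called without LI replicates 1 and 2, and 4.39% and 3.56% without SI replicates 1 and 2. The call for *Lum* was lost when other mesenchyme was defined by a *Pdgfra* UMI in place of clusters, which gave 1345 cells in place of 14340 (log2 fold change 0.84, edgeR adjusted p = 0.197).

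No member of 4 tested was called in smooth muscle-like cells, where 1.73% of 12245 genes were. DESeq2 called none either, and 2.53% of all genes. At an unadjusted p under 0.05, *Bgn*, *Lum* and *Ogn* passed, as did 12.3% of all genes. *Lum* stood at 54.6 ± 6.76 CPM in LI and 69.5 ± 6.69 CPM in SI (SD, n = 2 each), a log2 fold change of 0.49 ± 0.19 (SE, edgeR adjusted p = 0.353). With marker-gated groups (cells chosen by UMIs of the marker lists in place of clusters, which gave 10694 smooth muscle cells in place of 4875) it was called at 1.12 (edgeR adjusted p = 0.0257), where 3.03% of all genes were. *Bgn* had lower values in both SI libraries, at 8.63 ± 0.89 against 15.8 ± 3.40 CPM (SD, n = 2 each), and its log2 fold change of -0.71 ± 0.26 was not called (edgeR adjusted p = 0.305), although it was without LI replicate 2 (-0.94, edgeR adjusted p = 0.0285), where 12.47% of all genes were. *Ogn*, at 52 UMIs, had -2.03 ± 0.69 (edgeR adjusted p = 0.264) and was called without SI replicate 2 (-3.70, edgeR adjusted p = 0.0265), where 2.24% of all genes were. In neural-like cells no member had enough counts to be tested, and 0.31% of 11283 genes were called there.

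Summed over all kept cells, *Lum* alone of 8 members was called (log2 fold change 1.17 ± 0.17, edgeR adjusted p = 0.0252), where 1.88% of 14926 genes were. The cell make-up moved with region in these sums, and its part in the result was not tested: smooth muscle-like cells were 14.6% and 17.3% of cells in LI and 25.4% and 30.1% in SI, other mesenchyme 71.3% and 68.5% in LI and 62.3% and 58.3% in SI, and smooth muscle markers summed to 801 and 1573 CPM in LI and 1762 and 3759 CPM in SI. Pericyte markers were also higher in both SI libraries, at 23.8 and 36.5 CPM in LI and 43.6 and 89.5 CPM in SI. Mesothelial markers were lower, at 182 and 132 CPM in LI and 111 and 73.8 CPM in SI, as were epithelial and cartilage and tendon markers. Their part was not tested either. *Dcn* was at 47.3, 48.1, 46.1 and 44.7 CPM in the 4 libraries (LI replicates 1 and 2, SI replicates 1 and 2), with both SI libraries below both LI libraries. Its log2 fold change was 0.06 ± 0.16 and not called (edgeR adjusted p = 0.907), a sign opposite to that of the levels, which are scaled to library totals where the fold change is scaled by TMM, edgeR's trimmed-mean factors.

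**Figure D2:**
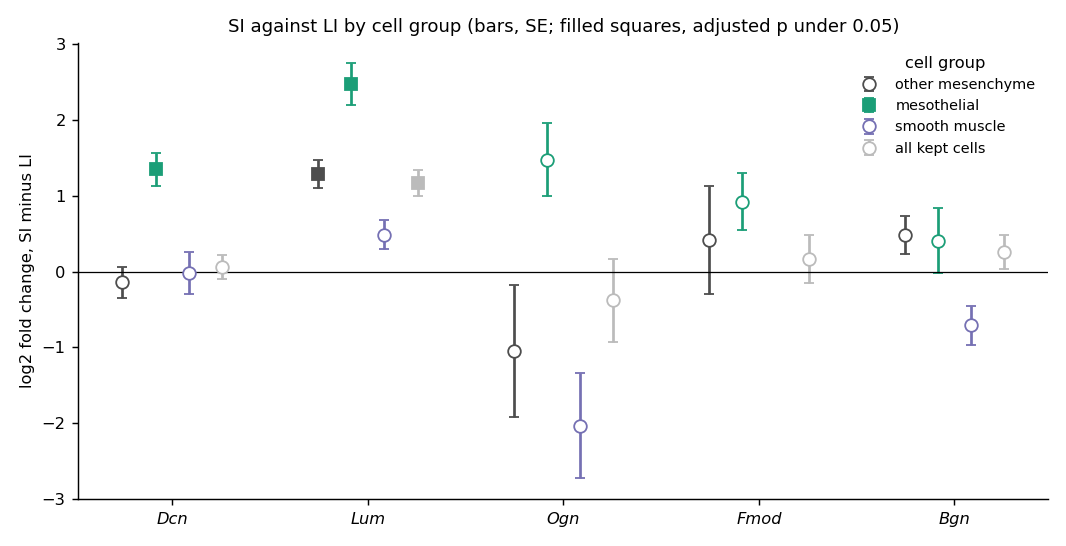
Log2 fold change of SI over LI (y axis) for the 5 members tested in mesothelial-like cells (x axis), in other mesenchyme, mesothelial-like cells, smooth muscle-like cells and all kept cells, with bars of 1 SE, n = 2 libraries per region, and filled squares where the edgeR adjusted p was under 0.05. *Lum* is called in other mesenchyme, mesothelial-like cells and all cells, *Dcn* in mesothelial-like cells, and *Ogn* and *Bgn* point in opposite directions in different groups.

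Whether a regional difference itself differed between groups was tested with the interaction of cell group and region, with library as a block. The block takes out what the groups of a library share. These p-values therefore measure how the gap between 2 groups varies among the libraries of a region. They do not measure the spread of a group's level between pools. Against other mesenchyme, 3 of 5 members were called in mesothelial-like cells: *Dcn* by 1.46 ± 0.12 (SE, edgeR adjusted p = 4.89e-13), *Lum* by 1.16 ± 0.15 (SE, edgeR adjusted p = 9.03e-08) and *Ogn* by 2.69 ± 0.31 (SE, edgeR adjusted p = 1.03e-08) on the log2 scale. In all 3 the SI-over-LI difference was larger in mesothelial-like cells. 6.37% of 13498 genes were called in this test, and the median over all of them was -0.06. For *Ogn* the regional differences had opposite signs, 1.48 in mesothelial-like cells and -1.05 in other mesenchyme, neither called alone, and DESeq2 did not call its interaction (3.18, adjusted p = 0.113).

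In smooth muscle-like cells, 2 of 4 members were called against other mesenchyme, where 0.864% of 13659 genes were. The interaction was -0.78 ± 0.09 for *Lum* (SE, edgeR adjusted p = 0.00732) and -1.18 ± 0.18 for *Bgn* (SE, edgeR adjusted p = 0.0216), so both regional differences were less positive in smooth muscle-like cells. Smooth muscle markers themselves differed between libraries in this group, at 1402 and 5048 CPM in LI and 4426 and 9272 CPM in SI, neural markers stood at 20.4 and 62.6 CPM in LI and 63.4 and 129 CPM in SI, and mesothelial markers at 12.2 and 7.42 CPM in LI and 4.14 and 2.84 CPM in SI. Cartilage and tendon markers stood at 69.5 and 81.1 CPM in LI and 49.7 and 42.5 CPM in SI. Epithelial markers stood at 20.9 and 16.8 CPM in LI and 12.4 and 6.3 CPM in SI. The part of all these markers in the interactions was not tested. *Dcn*, at 0.13 ± 0.29, was not called, and was called at 0.65 without SI replicate 2 (edgeR adjusted p = 0.0404). The call for *Bgn* was lost without LI replicate 1 (-1.11, edgeR adjusted p = 0.104). With marker-gated groups (1345 cells of other mesenchyme in place of 14340) neither was called, at 0.26 for *Lum* and -0.996 for *Bgn*, where 0.662% of all genes were. No member of 5 tested was called in neural-like cells, where 12.2% of 13655 genes were, at an unadjusted p under 0.05 none of them passed either, against 25.9% of all genes, and DESeq2 called none, against 6.48%.

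Shares of cells with a UMI were compared at 1 depth. Each cell was thinned to 3000 UMIs, and cells below that depth were left out, 102 of 1322 in the mesothelial-like and 1012 of 14340 in other mesenchyme. A *Dcn* UMI was then found in 40.6% and 43.2% of mesothelial-like cells in LI and in 69.9% and 71.2% in SI, against 6.11% to 10.4% of other mesenchyme and 3.31% to 6.06% of smooth muscle-like cells. In neural-like cells 0 of 1220 held 1, which allows a share of up to 0.246%. Before thinning, the median depth by library was 11107.5 to 19853 UMIs in neural-like and 4306 to 8918 UMIs in mesothelial-like cells. Without thinning the mesothelial-like shares were 52.7% and 74.5% in LI and 87.5% and 88.4% in SI. A *Lum* UMI was found in 7.45% and 12.8% of mesothelial-like cells in LI and in 38.2% and 50% in SI. In other mesenchyme the *Lum* shares were 8.88% and 11.5% in LI and 18.8% and 23.3% in SI, against 0.410% of neural-like cells. *Ogn* UMIs were in 5.32% and 15.4% of mesothelial-like cells in LI and in 19.3% and 33.5% in SI. Without thinning the *Ogn* shares were 6.08% and 34.9% in LI and 33.7% and 61.8% in SI, and overlapped. With 2 libraries per region the exact 2-sided permutation test cannot go below p = 0.333, which was its value for these SI against LI shares of *Dcn*, *Lum* and *Ogn* in mesothelial-like cells. Both SI shares lay above both LI shares for 15.7% of the genes tested there.

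**Figure D3:**
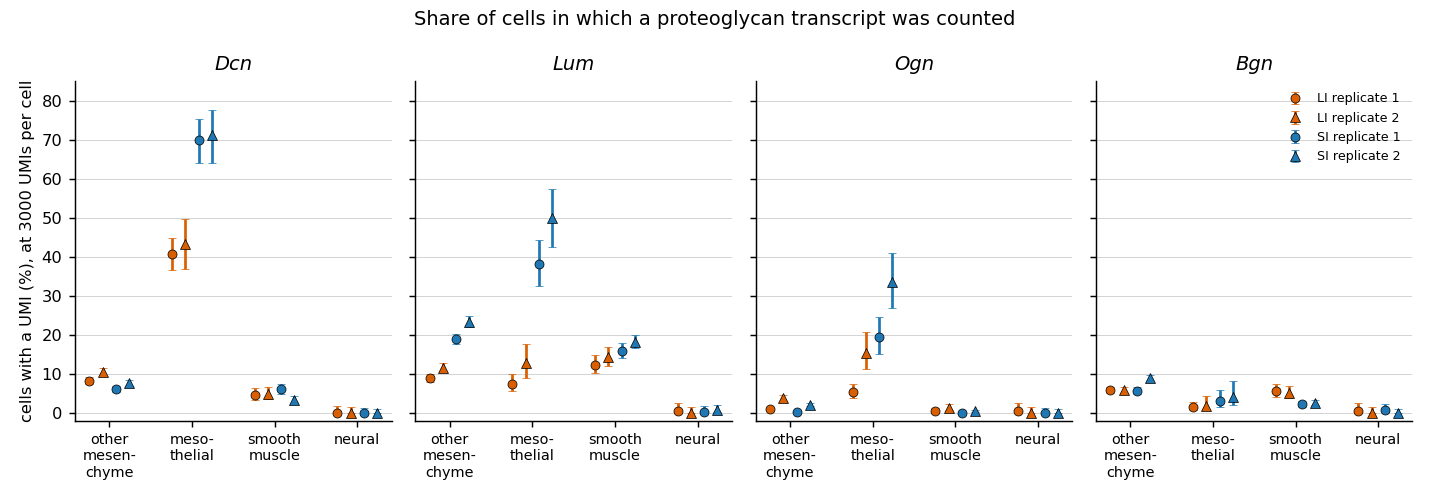
Share of cells with at least 1 UMI (y axis, percent, after thinning to 3000 UMIs per cell) of *Dcn*, *Lum*, *Ogn* and *Bgn* in the 4 cell groups (x axis), with 1 point per library and bars of the 95% Wilson interval, which covers counting error only. In mesothelial-like cells *Dcn* lies at 40.6% to 43.2% in LI and 69.9% to 71.2% in SI, and neural-like cells stay near 0 for all 4 genes.

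Within other mesenchyme the 5 clusters differed in their proteoglycans. Cluster 0 (6619 cells, led by *Igfbp5*, *Pitx1* and the tendon marker *Scx*) and cluster 3 (2279 cells, led by *Bmp3*, *Col14a1* and the pericyte marker *Rgs5*) had pooled *Dcn* levels of 36.0 and 35.9 CPM. Clusters 2 and 4, led by histone genes and by *Hist1h2bc*, *Ccnb2* and *Epcam*, genes other than *Epcam* being those of dividing cells, had 18.4 and 19.3 CPM. This order did not hold in every library: in SI replicate 1 cluster 3 was at 15.3 CPM, below cluster 2 at 22.6 CPM and cluster 4 at 29.6 CPM, and cluster 0 was at 28.0 CPM, while LI replicate 2 held 78.1 CPM in cluster 3. Cluster 6 (1180 cells, led by *Wnt4*, *Anxa2* and *Tac2*, with the pericyte marker *Kcnj8* among its 10 leading genes) had the highest *Bgn* level in every library, at 81.8 and 49.4 CPM in LI and 61.4 and 92.5 CPM in SI, against 8.97 to 39.6 CPM in the other 4 clusters. It also held 45 of the 113 *Aspn* UMIs of other mesenchyme, 40 of them in SI replicate 2. Its pooled *Dcn* level, 82.6 CPM, was the highest of the 5 clusters, as was its *Dcn* level in each library but LI replicate 2.

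LI replicate 2 stood apart in cluster 6. There *Dcn* was at 16.8 CPM and *Lum* at 9.06 CPM (37 and 20 UMIs in 223 cells), while the other 3 libraries held 61.3 to 134 CPM of *Dcn* and 44.6 to 115 CPM of *Lum*. *Ogn* was not low in it, at 22.2 CPM against 2.65 to 16.3 CPM in the others. The cells of this library in that cluster numbered 223, within the range of 216 to 436 over the libraries.

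Tested cluster by cluster, an alternative added after the data had been seen, *Lum* was called in clusters 0, 2 and 4 (log2 fold changes 1.51, 1.27 and 1.14, edgeR adjusted p = 0.00116, 0.0024 and 0.0237), where 5.97%, 3.37% and 1.43% of all genes were. It was not called in cluster 3 (0.56 ± 0.41, edgeR adjusted p = 0.526) or in cluster 6 (2.08 ± 0.49, edgeR adjusted p = 0.186), where 3.32% and 0.332% of all genes were called. *Dcn* had no common direction. It was lower in SI in cluster 3, at 15.3 and 22.1 CPM against 38.7 and 78.1 CPM in LI (log2 fold change -1.51 ± 0.32, SE, edgeR adjusted p = 0.0383), and *Ogn* was lower there too (-3.90 ± 0.78, edgeR adjusted p = 0.0301), where LI replicate 2 held 69 of its 84 UMIs. In cluster 0 *Dcn* was at 37.0 and 49.8 CPM in LI and 28.0 and 24.9 CPM in SI (-0.55 ± 0.21, edgeR adjusted p = 0.178). In cluster 6 its log2 fold change was 1.49 ± 0.48 (edgeR adjusted p = 0.543).

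**Figure D4:**
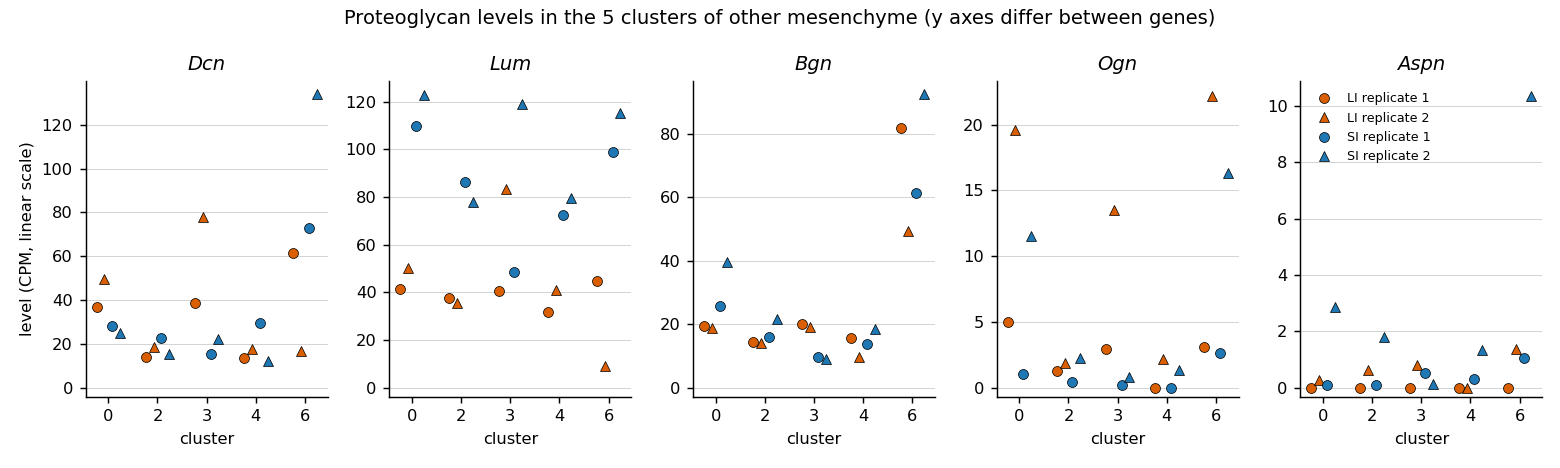
Level (y axis, CPM, linear scale that differs between genes) of *Dcn*, *Lum*, *Bgn*, *Ogn* and *Aspn* in the 5 clusters of other mesenchyme (x axis), with 1 point per library, orange for LI and blue for SI. *Bgn* is highest in cluster 6 in all 4 libraries, *Dcn* and *Lum* are low there in LI replicate 2, and *Ogn* is higher in replicate 2 than in replicate 1 of the same region in each cluster.

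For the 4 members with at least 500 UMIs, the genes most alike in level were sought over the 16 sums of library and cell group, by Pearson's r of log2(CPM + 1) among 6559 genes with a mean of at least 20 CPM. The 16 sums share 4 libraries, so r is a description. *Dcn* was most like *Dab2* (0.993), an endocytic adaptor, *Bnc1* (0.985), a transcription factor of mesothelium, and *Npnt* (0.981), a matrix ligand of integrins. All 3 were highest in mesothelial-like cells, with means of 170 CPM, 96.8 CPM and 306 CPM there. *Lum* was most like *Tmem176a* (0.988), the homeobox gene *Hoxc8* (0.986) and *Copz2* (0.985), and *Bgn* most like *Col14a1* (0.968), a collagen of the fibril surface, *Adgrl2* (0.962) and *Uvrag* (0.958). *Ogn* was most like *Pofut2* (0.960), *P4hb* (0.957) and *S100a11* (0.956). Between members, r was 0.877 for the neighbours *Dcn* and *Lum*, 0.902 for *Dcn* and *Ogn*, and 0.617 for the close relatives *Dcn* and *Bgn*. It was 0.834 for *Lum* and *Bgn*, 0.673 for *Lum* and *Ogn*, and 0.386 for *Bgn* and *Ogn*. All 4 genes were near 0 in the neural-like sums, so a shared low end enters each of these values.

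Of 10 further genes of the family, 5 could be tested between regions in other mesenchyme; *Podn*, *Kera*, *Chad*, *Nyx* and *Podnl1* are named here after their values were seen. *Podn*, encoding podocan, followed the mesothelial-like pattern, with 64 of its 83 UMIs there, at 1.66 and 9.55 CPM in LI and 6.31 and 13.3 CPM in SI. *Epyc*, encoding epiphycan and lying beyond *Kera* next to *Lum*, was the 1 gene of the 5 related lists called between regions in other mesenchyme, where 53 of their 60 genes could be tested and 3.95% of all genes were called. The LI libraries held 0.31 and 0.47 CPM of it and the SI libraries 3.26 and 1.28 CPM (2.66 ± 0.56 on the log2 scale, edgeR adjusted p = 0.0426), and the mesothelial-like values were 0, 0.40, 8.56 and 2.53 CPM. *Kera*, encoding keratocan and lying between them, had 6 UMIs in all, and *Chad*, *Nyx* and *Podnl1* had 1, 14 and 16.

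The collagens that these proteins bind, 12 of them on the list, were not called between SI and LI in other mesenchyme, mesothelial-like or smooth muscle-like cells, where 3.95%, 0.91% and 1.73% of all genes were. In mesothelial-like cells 10 of the 11 tested had positive log2 fold changes, with a median of 0.68 against 0.01 for all genes tested. The interaction of mesothelial-like cells against other mesenchyme, whose genes are also named after their values were seen, called 4 collagens with positive and 1 with negative sign, as well as *Pcolce*, an enhancer of procollagen cleavage, and *Loxl1*, a cross-linking oxidase, out of 53 related genes tested, where 6.37% of all genes were called. The 4 were *Col1a2* (1.53 ± 0.12), *Col12a1* (1.34 ± 0.20), *Col11a1* (1.25 ± 0.17) and *Col3a1* (0.34 ± 0.10), and *Col1a1* had -0.37 ± 0.11. *Col1a2* stood at 123, 258, 341 and 439 CPM in mesothelial-like cells and at 126, 220, 92.5 and 142 CPM in other mesenchyme (LI replicates 1 and 2, SI replicates 1 and 2), so its SI libraries lay above LI in the first group and overlapped them in the second. None of the 20 tested genes of glycosaminoglycan chain synthesis, and none of the 8 tested genes of TGF-β signalling and matrix processing, was called between regions in mesothelial-like cells, against 0.91% of all genes. Their median log2 fold changes were -0.07 and -0.10. In smooth muscle-like cells the interaction called *Col14a1* (-1.88 ± 0.24) and *Tgfbr3* (0.68 ± 0.12), the betaglycan co-receptor, of 53 related genes, where 0.864% of all genes were called. *Col1a2* was called between regions in neural-like cells (-2.53 ± 0.41, edgeR adjusted p = 0.0451), the 1 gene called of 35 related genes tested there, against 0.31% of all genes. Its values were 21.1 and 19.6 CPM in LI and 5.4 and 2.0 CPM in SI, and the call was lost without SI replicate 2. FB markers moved the same way in these sums, at 394 and 298 CPM in LI and 226 and 182 CPM in SI, and their part in the result was not tested. The neural-like interaction called 5 of 51 related genes, named here after their values were seen, against 12.2% of all genes: *Col2a1* (4.39 ± 0.91), a collagen of cartilage, *Chadl* (3.103 ± 0.85), *Chst11* (1.12 ± 0.33), a chondroitin sulphotransferase, *Loxl2* (-1.67 ± 0.33), a cross-linking oxidase, and *Col1a2* (-2.04 ± 0.44). *Col2a1* and *Chadl* had 38 and 22 UMIs in neural-like cells and none in LI replicate 1.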

How the data were processed

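Stroma of E12.5 mouse gut was measured in 4 droplet libraries, 2 of SI and 2 of LI, grouped by their titles. Per the labels, the authors used Cell Ranger 3.1.0 and Seurat 3 with mm10, and deposited UMI counts per gene and cell barcode. A 3′ and a 5′ kit are both named, and which library used which is not given in the sources used here. The kit sets which transcript end is counted, and so can move a gene's level.

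Cells with at least 1000 genes and under 10% mitochondrial UMIs were kept. Scrublet (scanpy 1.11.5) marked almost no cells at its automatic threshold, so the highest scores were removed at 0.8% per 1000 cells, 183 to 348 per library. Cells were clustered with Seurat 5.3.0. A cluster was named from fixed markers among its 10 leading genes by fold, by a rule settled after the clusters were seen, and other mesenchyme was every remaining cluster with at least 3 FB markers, no more than 1 marker of another class among those genes and no library above 90% of its cells. Those single markers are named beside the clusters.

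UMIs were summed per library and cell group, filtered by edgeR 4.0.16 (filterByExpr), scaled by TMM and tested by its quasi-likelihood test, adjusted over all genes, since cells are not replicates. The SE is the log2 fold change divided by the square root of F. Library totals were 31630548 to 62886525 UMIs. Intervals and limits for 0 (3 counts) cover counting error only. The scripts were tested on simulated data. Alternatives were DESeq2 1.42.0, other scaling, no filter, each library left out, a replicate block, doublets kept, a stricter cell filter, equal totals, marker-gated groups, other cluster choices and other thinning.

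All 8 members are named in every group. Of 60 related genes, those called between SI and LI are named, and for likeness the 3 genes with the highest r. The members and lists were chosen with earlier results of these data known. Nothing says that a library is 1 animal, so p-values between regions measure the spread between these pools, which may be technical. Interaction p-values measure how the gap between 2 groups of the same library varies among these pools.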

Additional observations from a re-analysis of the deposited data

Results flagged for a closer look

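The SI-over-LI difference differed between cell groups for 4 genes, by the edgeR interaction test of cell group and region with library as a block. Against other mesenchyme, it was larger in mesothelial-like cells by 1.46 on the log2 scale for *Dcn*, 1.16 for *Lum* and 2.69 for *Ogn*, 3 of the 5 members tested, where 6.37% of all genes were called. Without any 1 library the value was 1.40 to 1.53 for *Dcn*, 1.02 to 1.41 for *Lum* and 2.00 to 4.37 for *Ogn*, called each time by edgeR. DESeq2 did not call *Ogn* (3.18, adjusted p = 0.113). In smooth muscle-like cells it was more negative than in other mesenchyme, by -1.18 for *Bgn* and -0.78 for *Lum*, 2 of the 4 members tested, where 0.864% of all genes were called. Both smooth muscle-like calls were lost with marker-gated groups, where *Lum* had the opposite sign (0.26) and *Bgn* stood at -0.996. That grouping held 10694 smooth muscle cells in place of 4875. The call for *Bgn* was also lost without LI replicate 1.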

How the results depend on the processing

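Members called between SI and LI in other mesenchyme numbered 1, against 3 without a filter on low counts (*Lum*, *Aspn*, *Ogn*; 8.28% of all genes), 0 with marker-gated groups (2.41%), 2 in cluster 3 alone (3.32%), 0 in cluster 6 alone (0.332%) and 2 to 3 without any 1 library (3.56% to 16.4%). In mesothelial-like cells they numbered 2, and 1 to 4 without any 1 library (1.04% to 9.37%). In smooth muscle-like cells they numbered 0, against 1 without a filter (*Ogn*; 4.97%), 1 with marker-gated groups (*Lum*; 3.03%) and 0 to 1 without any 1 library (2.24% to 12.47%). In all kept cells they numbered 1, against 2 without a filter (5.72%) and 1 to 2 without any 1 library (3.50% to 12.6%). For the interaction in smooth muscle-like cells they numbered 2, against 0 with marker-gated groups (0.662%) and 1 to 3 without any 1 library (0.258% to 5.32%). Where a region is left with 1 library, that library is assumed to vary like the other region.

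Among genes with a UMI in every library of both groups, those lying below other mesenchyme in every library of smooth muscle-like cells numbered 4, against 1 with marker-gated groups (*Dcn*) and 2 at clustering resolution 0.6 (*Dcn*, *Bgn*), where *Ogn* and *Fmod* had a library without a UMI. Genes whose SI shares of cells lay above both LI shares numbered 1 in other mesenchyme against 2 when thinned to 2000 UMIs and 2 without thinning, 4 in mesothelial-like cells against 3 at 2000 UMIs and 2 without thinning, 1 in smooth muscle-like cells against 0 without thinning, and 0 in neural-like cells against 1 without thinning. Of all genes tested, 13.3%, 15.7%, 12.7% and 21.5% did so in these groups, 13.9%, 16.4%, 12.7% and 21.5% at 2000 UMIs, and 22.2%, 11.2%, 11.03% and 3.70% without thinning.

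Signs turned for 1 called value, the *Lum* interaction in smooth muscle-like cells, and otherwise for values that were not called. *Dcn* in other mesenchyme was at 0.35, 0.50 and 1.49 in clusters 2, 4 and 6, and *Bgn* at -0.94 in cluster 3. *Dcn* in smooth muscle-like cells was at 0.0082 without a filter, 0.034 with the stricter cell filter and 0.10 at equal totals, and *Prelp* in all cells at -0.19 with the stricter filter. Among interactions in mesothelial-like cells, *Fmod* was at -0.015 with doublets kept and -0.52 with marker-gated groups, and *Bgn* at 0.030 with the stricter filter and 0.13 at equal totals. With marker-gated groups in smooth muscle-like cells, *Dcn* was at -0.035, *Lum* at 0.26 and *Ogn* at 0.38. The cause was not tested.

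Without any 1 library, log2 fold changes crossed 0 for *Dcn* (-0.35 to 0.048 in other mesenchyme, -0.40 to 0.31 in smooth muscle-like cells, -0.36 to 0.65 for their interaction), *Fmod* (-0.90 to 1.05 in other mesenchyme, -0.062 to 0.35 in all cells, -0.18 to 1.62 for the mesothelial-like interaction), *Bgn* (-0.46 to 0.46 for that interaction), *Ogn* (-3.46 to 0.30 in other mesenchyme, -1.05 to 0.67 in all cells), *Omd* (-3.68 to 0.058 in other mesenchyme, -3.03 to 0.055 in all cells), *Aspn* (-0.16 to 3.86 in all cells) and *Prelp* (-0.73 to 0.54 in all cells).

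Libraries with the same replicate number share only that number, and their deviations correlated at 0.31 to 0.46 within cell groups. With the replicate block, members called numbered 3 in other mesenchyme (*Lum*, *Aspn*, *Ogn*), 4 in mesothelial-like cells (*Dcn*, *Lum*, *Fmod*, *Ogn*), 1 in smooth muscle-like cells (*Ogn*) and 2 in all cells (*Lum*, *Aspn*), and no call was lost. Over all genes the block called 8.39%, 7.14%, 9.82% and 6.70% in these groups, against 3.95%, 0.91%, 1.73% and 1.88% without it.

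Over all genes, calls ranged from 251 to 2339 in other mesenchyme (554 as reported), 40 to 1015 in mesothelial-like (97), 139 to 1586 in smooth muscle-like (212), 0 to 1473 in neural-like (35) and 202 to 1925 in all cells (280), the highest each time without LI replicate 2. For interactions they ranged from 208 to 888 in mesothelial-like (860), 37 to 748 in smooth muscle-like (118) and 848 to 2241 in neural-like cells (1665). Depth limited *Prelp*, *Omd*, *Aspn* and *Fmod*, at 35 to 227 UMIs each.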
